A study of Mus musculus with 6 samples.

Results

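Slc2a2, G6pc2, Slc30a8 and Slc38a5 encode proteins by which islet cells take up glucose, handle glucose 6-phosphate, load zinc into secretory granules and take up amino acids. They were chosen by name, and all 4 were found among the 23337 gene symbols of each count file. RNA was sequenced from whole pancreas of NMRI mouse embryos at E13.5. The mutant group comprised 3 pools from embryos of genotype Prox1 GFPCre/D, termed Prox1-nullyzygous in the labels, and the control group comprised 3 pools from wildtype embryos. Each pool held 5 to 6 pancreata and gave 1 library. Prox1 is a homeodomain transcription factor gene of pancreatic progenitors and endocrine cells. The labels do not say what the D allele lacks, and they give no GFPCre allele for the controls.

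In a mature beta cell, glucose enters through a facilitative transporter, is phosphorylated and is metabolised to ATP, which closes potassium channels and leads to insulin release. Glucose-6-phosphatase in the endoplasmic reticulum opposes the phosphorylation step, and zinc pumped into the granule lets insulin crystallise. Alpha cells respond to amino acids, and in mice the uptake of glutamine is linked to their proliferation. At mid-gestation the endocrine cells of the mouse pancreas are few and mostly glucagon-positive, and the main wave of beta cell formation is only beginning.

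Total counts ran from 16060424 to 17633867 reads per library, and 1 CPM (read counts scaled to a common library size by the TMM method, which aligns libraries on the bulk of their genes) stood for 15.9 to 17.5 reads. The pancreas markers Cpa1 and Ptf1a were present in both groups, at 1743 and 21.4 CPM in mutants and 1269 and 20.3 CPM in controls. Prox1 counts were 1330, 1774 and 1602 in mutant pools 1 to 3, against 1764, 1687 and 1824 in control pools 1 to 3, and the difference was not called (adjusted p = 0.235 by edgeR). A count over the whole gene does not check which part the mutant alleles lack. Mutant pool 1 and control pool 3 stood apart in Xist, the RNA of the inactive X chromosome, with 2 and 9 reads against 33297 to 47135 reads in the other 4 pools. The log2 fold change of each of the 4 genes is therefore also given without both of those pools, while ratios, shares and levels per length are given with all 6 pools.

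Of the 4 genes, 1 was called lower in mutants, 0 were called higher and 3 were not called. A gene was called at a Benjamini-Hochberg adjusted p under 0.05 in edgeR's quasi-likelihood test over 14687 genes, all of them with enough reads to be tested. Among all tested genes 7.95% were called, 4.28% lower and 3.67% higher. The called gene was Slc38a5, which fell to 53.6% of its control level (95% interval 45.5% to 63.1%). Slc2a2, G6pc2 and Slc30a8 stood at 94.7%, 71.6% and 89.3% of control. The median log2 fold change of the 4 genes was -0.32, beside 0.00055 over all tested genes. In whole organs, fewer cells of a type and less RNA per cell cannot be told apart.

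**Figure D1:**
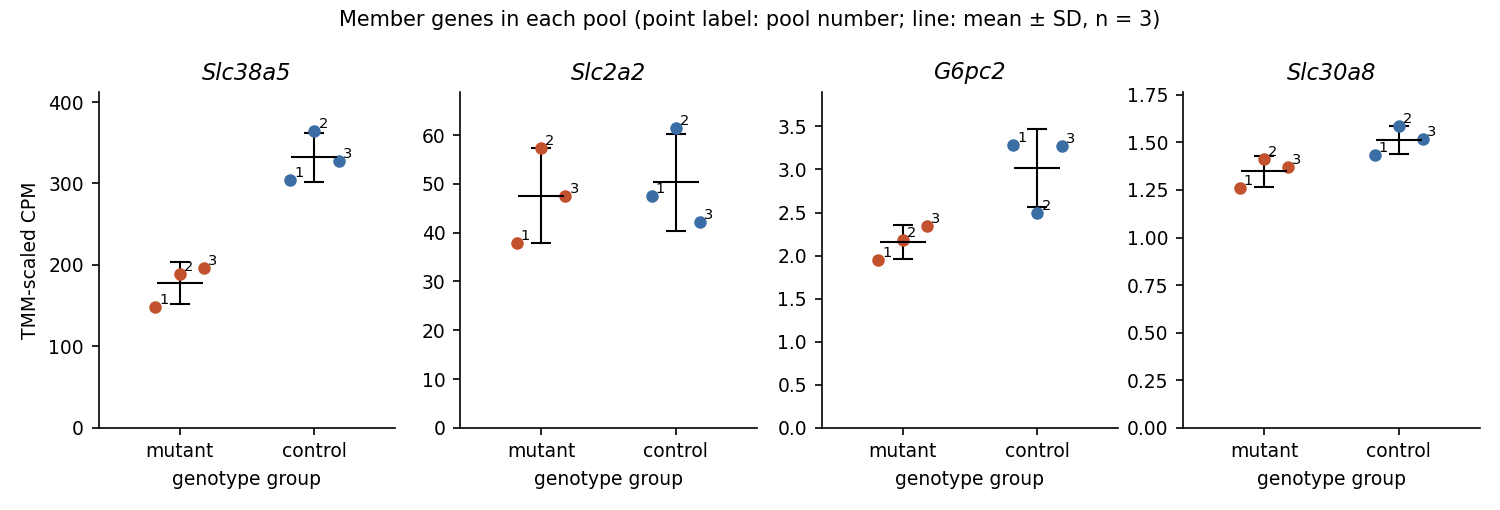
TMM-scaled CPM of each gene in every pool, mutant left of control, with each axis starting at 0; points carry the pool number and lines give the mean and SD of 3 pools. Slc38a5 lies between 147.8 and 196.4 CPM in mutant pools and between 304.8 and 364 CPM in control pools, while the Slc2a2 groups overlap.

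Slc2a2 encodes GLUT2, the facilitative glucose transporter of mouse beta cells and hepatocytes, and in the mouse embryo it also marks early pancreatic progenitors. Slc2a2 spans chromosome 3 from 28697903 to 28731359 on the plus strand (GRCm38, ENSMUSG00000027690.13). Its counts were 602, 973 and 832 in mutant pools 1 to 3, against 796, 1008 and 721 in control pools 1 to 3. In CPM these were 37.9, 57.3 and 47.6 in mutants, against 47.5, 61.4 and 42.1 in controls. Pool 2 was the highest and the pool with almost no Xist reads the lowest in each group, and the groups overlapped. The means were 47.6 ± 9.73 CPM in mutants and 50.4 ± 9.94 CPM in controls (SD, n = 3 each). On the log2 scale mutants differed by -0.08 (SE 0.165), which edgeR did not call (adjusted p = 0.857). The 95% interval allowed a mutant level from 73.0% to 122.7% of control. The direction depended on single pools, with 0.06 without mutant pool 1, 0.08 without control pool 2 and -0.06 without both pools low in Xist. The spread between pools, with a coefficient of variation of 20.5% in mutants and 19.7% in controls, exceeded the 3.53% and 3.45% that counting error alone gives at these read numbers.

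G6pc2 encodes the islet-specific catalytic subunit of glucose-6-phosphatase, which in mouse beta cells works against glucose phosphorylation. G6pc2 spans chromosome 2 from 69211073 to 69227841 on the plus strand (GRCm38, ENSMUSG00000005232.11). The counts were low, with 31, 37 and 41 reads in mutant pools 1 to 3 and 55, 41 and 56 reads in control pools 1 to 3. Scaled to library size, the values were 1.95, 2.18 and 2.35 CPM in mutants and 3.28, 2.50 and 3.27 CPM in controls. All 3 mutant pools were below all 3 control pools, though mutant pool 3 and control pool 2 lay close together. Group means were 2.16 ± 0.199 CPM in mutants and 3.02 ± 0.451 CPM in controls (SD, n = 3 each). The difference of -0.48 on the log2 scale (SE 0.198) had an unadjusted p of 0.0383 in edgeR and did not pass the adjustment over all genes (adjusted p = 0.203). The interval for the mutant level ran from 52.5% to 97.8% of control. Counting error alone would give a coefficient of variation of 16.6% in mutants and 14.1% in controls at this depth, beside 9.23% and 14.9% observed. Without both pools low in Xist the value was -0.36 (SE 0.261, adjusted p = 0.588 by edgeR).

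Slc30a8 encodes ZnT8, the zinc transporter of the insulin granule membrane. Slc30a8 spans chromosome 15 from 52295553 to 52335798 on the plus strand (GRCm38, ENSMUSG00000022315.3) and was the scarcest of the 4 genes. It had 20, 24 and 24 reads in mutant pools 1 to 3, against 24, 26 and 26 reads in control pools 1 to 3. These correspond to 1.26, 1.41 and 1.37 CPM in mutants and 1.43, 1.58 and 1.52 CPM in controls. The groups did not overlap, with 1.41 CPM in the highest mutant pool and 1.43 CPM in the lowest control pool. Counting error alone gives a coefficient of variation of 21% in mutants and 19.9% in controls at these read numbers, more than the 6.01% and 5.00% observed. The means of 1.35 ± 0.0811 CPM in mutants and 1.51 ± 0.0757 CPM in controls (SD, n = 3 each) differed by -0.16 on the log2 scale (SE 0.217), and edgeR did not call the gene (adjusted p = 0.774). The interval for the mutant level ran from 63.6% to 125.5% of control and so included equal levels. Without both pools low in Xist the value was -0.12 (SE 0.303, adjusted p = 0.908 by edgeR). In all, 3 of the 4 genes had no overlap between groups, each lower in mutants, beside 13.4% of all tested genes lower in this way. Slc30a8 and G6pc2 were among them without being called.

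Slc38a5 encodes SNAT5, a sodium-coupled transporter of glutamine, asparagine, histidine and serine, which mouse alpha cells express and which mouse retinal endothelium also makes. Slc38a5 spans chromosome X from 8271133 to 8280179 on the plus strand (GRCm38, ENSMUSG00000031170.14). It had 2351, 3208 and 3433 reads in mutant pools 1 to 3, against 5106, 5976 and 5596 reads in control pools 1 to 3. The corresponding values were 147.8, 189.0 and 196.4 CPM in mutants and 304.8, 364.0 and 327.0 CPM in controls. The highest mutant pool lay well below the lowest control pool, and mutant pool 1 was the lowest of all. Means were 177.7 ± 26.2 CPM in mutants and 332.0 ± 29.9 CPM in controls (SD, n = 3 each). In edgeR the gene fell by 0.90 on the log2 scale (SE 0.104, adjusted p = 0.00139), rank 137 by p among the tested genes. Leaving out 1 library at a time kept the call and gave -0.98 to -0.78. Slc38a5 is X-linked, and the fit without both pools low in Xist gave -0.80 (SE 0.0828, adjusted p = 0.00181 by edgeR).

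Start-site sequence was printed for Slc38a5 as the called gene, with Slc2a2 and G6pc2 beside it as genes that were not called. RefSeq (GRCm38.p6) promoter entries were matched for 3 of the 4 genes, and the 120 bases before the start are given, 5′ to 3′ on the plus strand. None of these bases lies in an annotated GENCODE exon of its own gene. Capitals mark every match to the E-box CANNTG or to the homeodomain core TAAT on either strand. The Slc38a5 window is chrX:8271261-8271380, the Slc2a2 window chr3:28697783-28697902 and the G6pc2 window chr2:69210953-69211072. The Slc38a5 window lies inside the GENCODE span of its gene, which begins at 8271133, upstream of the RefSeq start used here. The windows of Slc2a2 and G6pc2 end directly before the GENCODE spans of their genes.
Slc38a5: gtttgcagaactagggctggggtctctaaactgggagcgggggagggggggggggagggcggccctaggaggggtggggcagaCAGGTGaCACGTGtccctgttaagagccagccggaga
Slc2a2: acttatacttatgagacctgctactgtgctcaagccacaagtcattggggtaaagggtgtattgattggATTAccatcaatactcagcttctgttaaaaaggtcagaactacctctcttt
G6pc2: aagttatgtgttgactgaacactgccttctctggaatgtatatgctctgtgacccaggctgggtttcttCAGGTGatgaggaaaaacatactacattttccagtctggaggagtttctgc

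The window of Slc38a5 held 2 E-boxes and 66.7% G and C, that of G6pc2 held 1 E-box and 44.2% G and C, and that of Slc2a2 held 1 homeodomain core and 40.0% G and C. E-boxes are sites of basic helix-loop-helix factors as a class. The E-box form searched for as that of Neurog3 and Neurod1 is the first of the longer letters below. It had 0 matches in each of the 3 windows, so the E-boxes found were not of that form. CANNTG occurred in 40.2% and TAAT in 31.8% of 32851 RefSeq windows of the same length, so either is common among promoters. The longer letters CAGATG (a case of CANNTG, in 7.05% of windows), GTAAACA (1.36%) and GTTAAT (which contains TAAT, 2.995%) occurred in none of the 3 windows on either strand. CANNTG was added to the search after the windows had been seen.

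Levels can be compared between genes only per length. Per kilobase of merged exon, Slc38a5 stood at 79.3 ± 11.7 CPM in mutants and 148.1 ± 13.3 CPM in controls (SD, n = 3 each). Slc2a2 followed at 8.27 ± 1.69 and 8.75 ± 1.73 CPM per kilobase in mutants and controls, G6pc2 at 1.09 ± 0.101 and 1.53 ± 0.228, and Slc30a8 at 0.684 ± 0.0411 and 0.767 ± 0.0384. This order held in each of the 6 libraries, and no neighbouring pair overlapped within a group. Proglucagon (Gcg), the most abundant hormone transcript, stood at 588.6 ± 15.7 CPM per kilobase in mutants and 970.0 ± 117.2 in controls.

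Within its own family each gene held a different place. Slc38a5 made up 24.5%, 28.7% and 29.3% of the summed Slc38 level per kilobase in mutant pools 1 to 3, against 38.7%, 42.8% and 40.2% in control pools 1 to 3. It ranked 2 among the 11 Slc38 genes in mutants and 1 in controls. The other 10 together summed to 203.1 to 211.2 CPM per kilobase in mutants and 215.5 to 217.1 in controls. Slc2a2 ranked 2 of 12 Slc2a genes in both groups, at 13.45% to 19.4% of the family sum in mutants and 15.8% to 19.9% in controls. Slc2a1, the transporter of most embryonic cells, led that family at 24.6 ± 1.077 CPM per kilobase in mutants and 22.7 ± 0.424 in controls. G6pc2 gave 7.62% to 10% of the glucose-6-phosphatase catalytic subunits in mutants and 9.88% to 12.7% in controls, where the widely expressed G6pc3 made up nearly all the rest. Slc30a8 gave only 1.083% to 1.27% of the zinc exporter family in mutants and 1.28% to 1.54% in controls. These shares are descriptions and were not tested.

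Ratios between genes of the same library do not depend on library scaling. On the log2 scale of reads, Slc38a5 to Slc2a2 was 1.91 ± 0.169 in mutants and 2.73 ± 0.200 in controls (SD, n = 3 each), a difference of -0.82. The ratio to Slc30a8 differed by -0.75 and that to G6pc2 by -0.44. In each of these 3 ratios all mutant pools lay below all control pools, which gave p = 0.1 in the exact two-sided permutation test, the smallest p that 3 against 3 allows, and an adjusted p of 0.35 over the 14 ratios examined. A design of this size cannot reach 0.05, so these differences did not pass a test. Against Gcg, however, the Slc38a5 ratio was -2.32 ± 0.197 in mutants and -2.12 ± 0.258 in controls, and the groups overlapped (difference -0.19, exact permutation p = 0.5, adjusted p = 0.583). Against Chga, the granin gene of endocrine granules, it differed by -0.37 with overlap (exact permutation p = 0.2, adjusted p = 0.35). The overlap came from control pool 3, at 1.085 beside 1.214 in mutant pool 3. Chga itself stood at 83.1 ± 7.87 CPM in mutants and 122.3 ± 29.2 CPM in controls. Its log2 difference of -0.56 (SE 0.149) was not called (edgeR adjusted p = 0.0564).

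The ratios of the other genes to Gcg were each higher on average in mutants, and with 3 pools against 3 none could pass the adjustment. Slc30a8 to Gcg was -9.32 ± 0.0516 in mutants and -9.87 ± 0.203 in controls on the log2 scale, and every mutant pool lay above every control pool (difference 0.55, exact permutation p = 0.1, adjusted p = 0.35). Slc2a2 to Gcg differed by 0.63 and G6pc2 to Gcg by 0.24, each with overlapping groups and an exact permutation p of 0.2 (adjusted p = 0.35). Gcg itself was called lower, at 879.4 ± 23.5 CPM in mutants and 1449 ± 175.2 CPM in controls, a difference of -0.72 on the log2 scale (SE 0.0803, edgeR adjusted p = 0.00117).

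**Figure D2:**
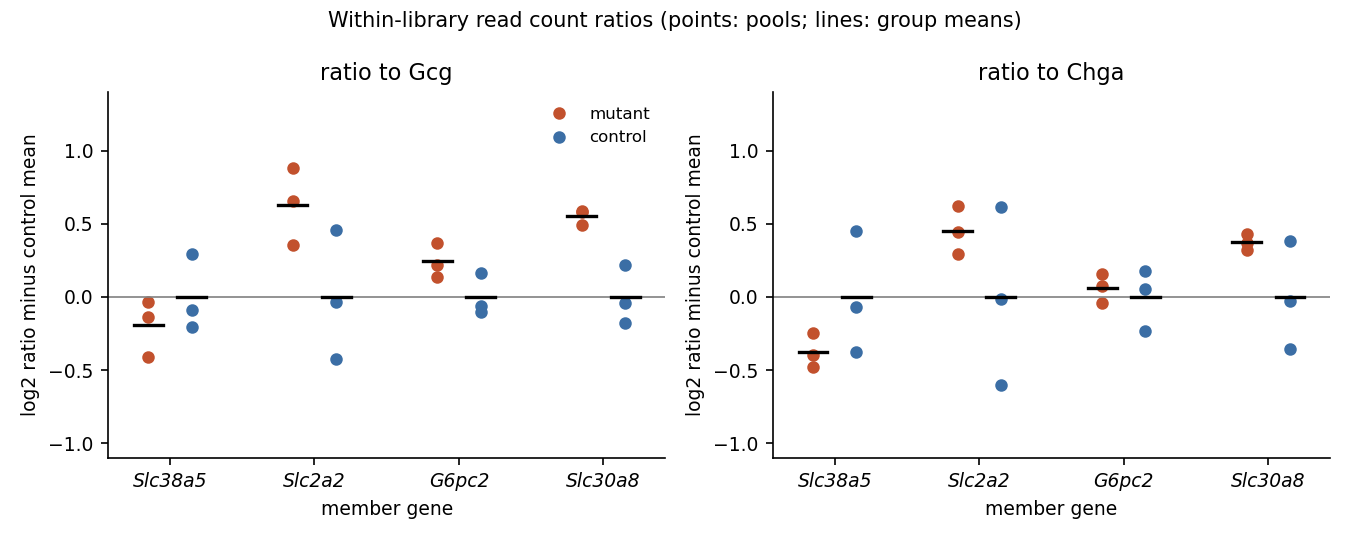
Log2 ratio of reads of each gene to Gcg (left) and to Chga (right) within each library, after subtracting the control mean; points are pools, mutant left of control, and lines are group means. The Slc30a8 to Gcg ratio is higher in all 3 mutant pools, while the Slc38a5 ratios of the groups overlap.

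Most tested markers of the alpha, beta and pan-endocrine lists were called lower in mutants, beside 4.28% of all tested genes. Of 8 alpha cell markers, 7 were called lower and 1 was not called, and their summed level was 965.9 to 1004 CPM in mutants and 1422 to 1788 CPM in controls. Most of this sum was Gcg, at 858.0 to 904.6 CPM in mutants and 1297 to 1640 CPM in controls. Gcg and the beta cell markers Ins1, Ins2 and Iapp are also among the islet hormone genes below. Of 6 tested beta cell markers, 5 were called lower, with a summed level over all 8 listed of 107.1 to 129.4 CPM in mutants and 166.5 to 196.5 CPM in controls. The mature beta cell genes Mafa and Ucn3 had too few reads to be tested. Of 12 pan-endocrine markers, 7 were called lower and 5 were not called, at 563.6 to 671.2 CPM in mutants and 702.0 to 969.9 CPM in controls. None of 8 endothelial markers was called, and their sum was 675.4 to 855.6 CPM in mutants and 608.7 to 686.5 CPM in controls.

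Markers of hepatocytes, another known source of Slc2a2 transcripts, were scarce. They summed to 7.67 to 9.31 CPM over 11 genes in mutants and 15.8 to 19.5 CPM in controls, and 2 of 5 tested were called lower. No hepatocyte marker was at 0 in every library. Of 9 tested acinar markers, 1 was called lower, with sums of 3362 to 4527 CPM in mutants and 2113 to 4413 CPM in controls. Progenitor and duct markers summed to 861.2 to 1022 CPM in mutants and 1027 to 1112 CPM in controls, with 1 of 7 called higher and 1 lower. Erythroid markers overlapped in sum, at 1569 to 2254 CPM in mutants and 1367 to 2116 CPM in controls, and 4 of 7 were called higher. The median log2 fold change of these 7 genes was 1.17, a rise that the sum does not show. Gut markers summed to 4.84 to 6.60 CPM in mutants and 7.46 to 12.3 CPM in controls. Markers of neural crest and neurons summed to 29.0 to 33.8 CPM in mutants and 54.7 to 87.0 CPM in controls, with 4 of 6 called lower. Of 6 listed endocrine progenitor markers, 3 were called lower and 1 higher, with sums of 556.7 to 597.6 CPM in mutants and 624.0 to 683.5 CPM in controls. The part of these cell types in the values of the 4 genes was not tested.

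Among glucose transporters other than Slc2a2, none of 10 tested genes was called by edgeR, and their median log2 fold change was 0.03. Slc2a1 stood at 86.2 ± 3.78 CPM in mutants and 79.6 ± 1.49 CPM in controls (SD, n = 3 each), 0.11 higher on the log2 scale without being called (SE 0.0488, edgeR adjusted p = 0.222). Total-count scaling called 1 gene of the list, the fructose transporter gene Slc2a5 (adjusted p = 0.0436, beside 0.053 with TMM), and leaving out control pool 2 called Slc2a3 (adjusted p = 0.0348, beside 0.392), both named after their values were seen. The sodium-coupled transporters Slc5a1 and Slc5a2 were among the 7 listed genes with too few reads to test.

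Genes that phosphorylate glucose or handle glucose 6-phosphate were called lower in 3 of 11 tested cases other than G6pc2, and none was called higher. Hk1, encoding the hexokinase of most tissues, stood at 48.2 ± 6.44 CPM in mutants and 36.9 ± 3.51 CPM in controls (SD, n = 3 each), with no overlap and a log2 difference of 0.39 (edgeR adjusted p = 0.0571). Outside the naming rule and named after its values were seen, it was called higher with no filter (0.045), by DESeq2 (adjusted p = 0.00946) and without control pool 2 (0.0273). Of the called genes, Hkdc1, encoding a hexokinase domain protein, fell by 0.54 on the log2 scale (SE 0.13) and Slc37a4, encoding the transporter that carries glucose 6-phosphate into the endoplasmic reticulum, fell by 0.39 (SE 0.0918). The median of these 11 genes was -0.03. The uncalled members with the most reads were Slc37a3 at 0.07 and Adpgk, encoding an ADP-dependent kinase of glucose, at 0.11. None of the 3 calls held without mutant pool 1, 2 or 3 or without control pool 1 or 3, with edgeR adjusted p for Hkdc1 from 0.0577 without mutant pool 2 to 0.113 without control pool 3. Without control pool 2 the Hkdc1 call held and the Slc37a4 call was lost (edgeR adjusted p = 0.0567), while Hk1 was called higher and Slc37a1, likewise outside the rule, lower (0.0441), giving 4 calls in the list.

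Further down the pathway, 4 of 23 tested glycolysis and pyruvate genes were called higher and 1 lower, with a median log2 fold change of 0.09. Ldhb, encoding the lactate dehydrogenase subunit of oxidative tissues, rose most, at 110.7 ± 9.74 CPM in mutants and 47.1 ± 4.62 CPM in controls, 1.23 higher on the log2 scale (SE 0.0852, edgeR adjusted p = 0.000119). Slc16a1, encoding the lactate and pyruvate carrier MCT1, rose by 0.32 (SE 0.0531, adjusted p = 0.0071 by edgeR), Pdha1 by 0.28 and Ldha by 0.17. Ldha and Slc16a1 are known as genes kept low in mature beta cells. Aldoc, encoding a brain-type aldolase, was the called gene that fell, by 0.72 on the log2 scale. Pkm2 (0.08) and Tpi1 (-0.07) were the uncalled members with the most reads. The Ldha call was lost on leaving out any 1 pool (edgeR adjusted p from 0.0734 without control pool 2 to 0.147 without mutant pool 1). With all pools it was lost in limma voom (adjusted p = 0.0507). In edgeR it was lost with total-count scaling (adjusted p = 0.0852), a 1 CPM filter (0.0516) and replicate number as a block (0.062). The Pdha1 call was lost without mutant pool 1 or 2 or control pool 1, and the Aldoc call without mutant pool 1 or 3 or control pool 1 or 3, so that 2 calls were left without mutant pool 1 or control pool 1 and 3 without mutant pool 2, mutant pool 3 or control pool 3. Gapdh and Pgk1, which have many processed pseudogenes, held only 2.03 and 10.7 CPM in mutants and 1.88 and 10.4 CPM in controls, and Eno1 was listed at 0, so values of such genes are uncertain.

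Zinc handling genes other than Slc30a8 moved in both directions, with 5 of 24 tested genes called higher and 2 lower and a median of 0.03. The metallothionein genes Mt1 and Mt2, whose products bind zinc in the cytosol, rose by 0.61 (SE 0.0806) and 0.53 (SE 0.0668) on the log2 scale. Mt2 stood at 114.8, 116.9 and 107.2 CPM in mutant pools 1 to 3, against 85.4, 72.4 and 76.2 CPM in control pools 1 to 3, with no overlap (adjusted p = 0.00213 by edgeR). The importer genes Slc39a8 and Slc39a10 rose by 0.87 (SE 0.113) and 0.28 (SE 0.0476). Slc30a10, encoding a manganese exporter, had 3.71, 1.53 and 1.77 CPM in mutant pools 1 to 3, against 0.358, 0.366 and 0.409 CPM in control pools 1 to 3, where these stood for 6, 6 and 7 reads. It rose by 2.60 (SE 0.433, adjusted p = 0.00787 by edgeR), and by 2.11 without mutant pool 1, the highest. The importer gene Slc39a2 was called lower by 0.82 on the log2 scale (SE 0.206, adjusted p = 0.044 by edgeR), a call lost on leaving out any 1 pool (adjusted p from 0.0825 to 0.137). With all pools the call was lost by DESeq2 (adjusted p = 0.174) and in limma voom (0.0503). In edgeR it was lost with no filter (adjusted p = 0.0529) and with replicate number as a block (0.0634). Slc39a11, outside the naming rule and named after its values were seen, was called lower at -0.30, and among fits without 1 pool only that without control pool 2 kept its call. The same methods as for Slc39a2 lost the Slc39a11 call, with adjusted p from 0.0505 by DESeq2 to 0.0707 with the block in edgeR. Slc39a7 (0.07) and Slc39a6 (0.13) were the uncalled members with the most reads.

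Among amino acid transporters other than Slc38a5, 2 of 28 tested genes were called higher and 2 lower, and their median was -0.01. Of the 8 other Slc38 genes tested, none was called, with log2 fold changes between -0.16 for Slc38a7 and 0.10 for Slc38a2. Slc38a4 and Slc38a2 were the uncalled members with the most reads, at 406.8 ± 22.1 and 408.3 ± 13.1 CPM in mutants and 441.9 ± 2.63 and 379.9 ± 18.7 CPM in controls. Slc7a2, encoding a carrier of cationic amino acids, fell by 0.43 (SE 0.0639, adjusted p = 0.00441 by edgeR), and Slc36a1, encoding a lysosomal proton-coupled transporter, fell by 0.36 (SE 0.0541, adjusted p = 0.00481 by edgeR). Slc7a11, encoding the cystine importer, rose by 0.82 (SE 0.188) and Slc7a6 by 0.28 (SE 0.0665). The Slc7a11 call was lost on leaving out any 1 pool (edgeR adjusted p from 0.0593 without control pool 2 to 0.121 without mutant pool 2). With all pools it was lost by DESeq2 (adjusted p = 0.132) and with replicate number as a block in edgeR (0.0587). Among fits without 1 pool, the Slc7a6 call held only without control pool 2 (otherwise edgeR adjusted p from 0.0603 without mutant pool 1 to 0.125 without mutant pool 3). Total-count scaling also lost the Slc7a6 call (edgeR adjusted p = 0.0504). With Slc38a5 included the list had 5 calls, and 3 without mutant pool 1 or 2 or control pool 1 or 3. Whether Slc38a5 differed from its family in its change was not tested.

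**Figure D3:**
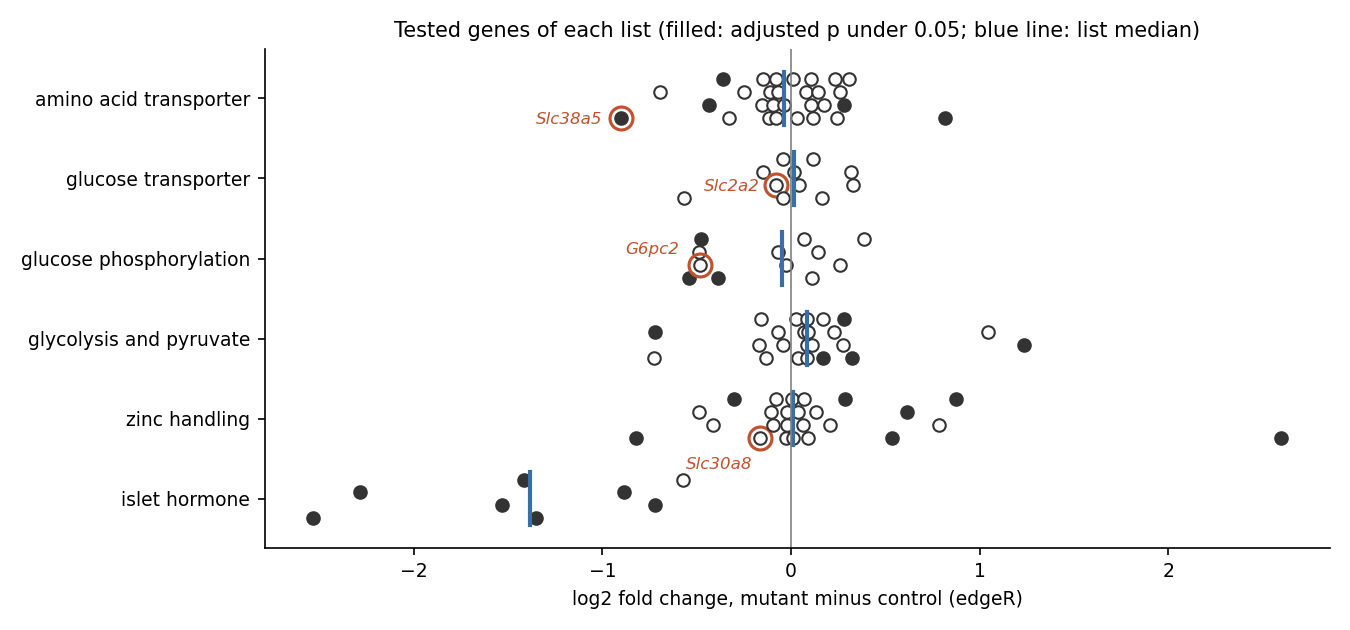
Log2 fold change (mutant minus control) of every tested gene of 6 lists, with filled points for genes called by edgeR, a blue line at each list median and red rings around the 4 genes. Slc38a5 at -0.90 is the lowest of the amino acid transporters, while G6pc2 at -0.48 lies beside called genes of its list without being called.

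Of 8 tested islet hormone genes, 7 were called lower and Sst was not, and the log2 fold changes ran from -2.53 for Ppy to -0.57 for Sst, with a median of -1.38. Iapp changed by -2.29, Pyy by -1.35, Ghrl by -0.88 and Ins1 by -1.41. Ins1 was not called when mutant pool 2 was left out (adjusted p = 0.0533 by edgeR) or mutant pool 3 (0.0604). Ins2, which fell by 1.53, lost its call without mutant pool 1 (edgeR adjusted p = 0.058), 2 (0.111) or 3 (0.103) or control pool 1 (0.0639), and in limma voom (0.0701). Ins1 and Ins2 are close copies of each other.

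Likeness of profile was measured as the root mean square difference between log2 CPM values over the 6 libraries, each gene centred on its own mean, among 12240 named genes whose log2 CPM averaged 1 or more. The genes most like Slc38a5 were Gal3st1 (0.0606), Resp18 (0.0684), Col9a1 (0.0785), Slc39a2 (0.0879) and Zcchc18 (0.1), all called lower in mutants, with log2 fold changes from -1.01 for Resp18 to -0.75 for Col9a1. Those most like G6pc2 were Pnck (0.0386), Atf7ip2 (0.0632), Rragb (0.0654), Elf3 (0.0781) and Galnt12 (0.0789), of which Rragb, Elf3 and Galnt12 were called lower. With 31 to 56 reads per library, the spread of G6pc2 within groups was below or close to counting error, so its likeness carries little weight. Closest to Slc2a2 were Disc1 (0.0774), Esm1 (0.0838), Sobp (0.0861), Mamdc4 (0.089) and Ppp1r35 (0.0941), none of them called. Slc30a8 was nearly flat over the libraries and lay closest to Cdc37l1 (0.0186), Zfp672 (0.0205), Nr1h2 (0.021), Evi5l (0.0225) and Gspt2 (0.0237), none of them called. With 20 to 26 reads per library, Slc30a8 itself averaged 0.63 log2 CPM, below the cutoff of 1. Counting error exceeded its spread at these read numbers, so little rests on this likeness. All such profiles share the same 6 libraries and the same 2 groups, so the calls of these genes largely follow from how they were picked.

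**Figure D4:**
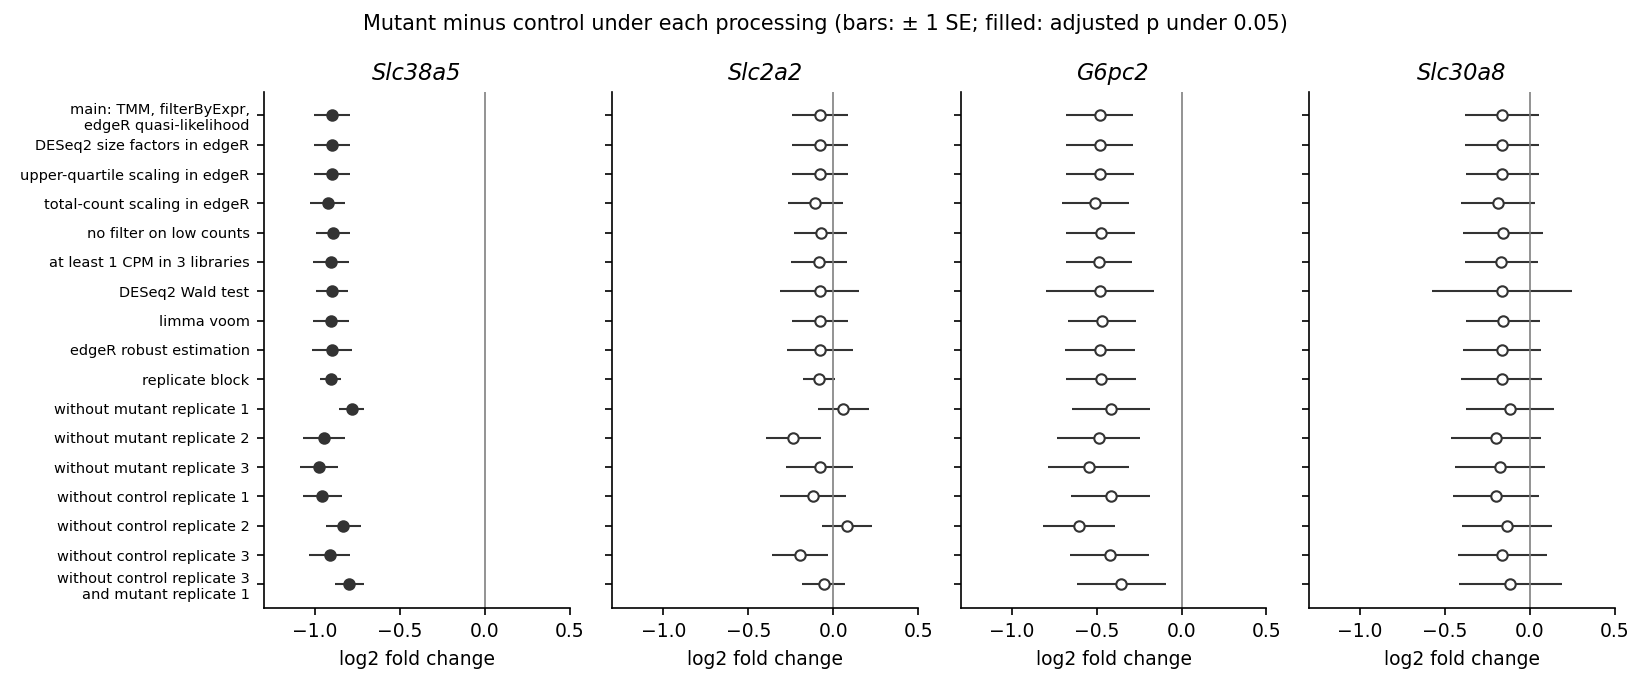
Log2 fold change (mutant minus control) of each gene with bars of 1 SE under the main processing and 16 alternatives, with filled points for calls. Slc38a5 stays between -0.98 and -0.78 and called throughout, Slc2a2 crosses 0 in 2 alternatives, and G6pc2 and Slc30a8 stay below 0 without being called.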

How the data were processed

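The deposited files hold raw read counts per gene symbol, not normalized, 1 file per library. Per the submitters' processing notes, cutadapt 1.13, STAR, HTSeq 0.6.1p1 and DESeq2 were named with genome build mm10. No source used here gives the STAR version, the annotation, the strand setting or the treatment of reads with several positions, so reads of overlapping genes and of near-identical copies are uncertain. The labels' protocol names Trizol for extraction, whereas the series' design text names a column kit. Nothing states that pools were separate litters, so p-values measure the spread between these pools. No 2 libraries of a group agreed within sampling noise.

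Counts were tested with edgeR 4.0.16 in R 4.3.3: filterByExpr with a minimum count of 10, TMM scaling, quasi-likelihood F test, genotype as the only term, Benjamini-Hochberg over 14687 genes, and log2 fold changes as mutant minus control. SE was |log2 fold change|/√F, and 95% intervals used the t distribution on the fit's degrees of freedom. Ratios had 0.5 reads added and an exact permutation test in SciPy 1.17.1. Alternatives used DESeq2 1.42.0, limma 3.58.1, other scalings and filters, a replicate block and libraries left out. The fit was tested on simulated data. It recovered 60.5%, 77.6% and 100% of genes changed by 0.5, 1 and 2 on the log2 scale, with 8 false calls. The 200 changed genes were drawn from tested genes of all read numbers. Recovery at read numbers as low as those of G6pc2 and Slc30a8 was not measured separately. Of the listed symbols, 213 were matched as written and 3 by older symbols, with 2 unmatched. Positions and merged exon lengths come from GENCODE M21. The 4 genes and all lists were chosen with earlier results of these data known. The naming rule took, from each list, all called genes (if over 6, the 6 with the smallest adjusted p) and the 2 uncalled genes with the most reads, and the 5 genes closest in profile. Some genes that the rule names are not reported here.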

Additional observations from a re-analysis of the deposited data

How the results depend on the processing

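Under all 16 alternatives Slc38a5 was called lower and none of Slc2a2, G6pc2 and Slc30a8 was called, so that 1 of the 4 genes was called lower and 0 higher throughout. Leaving out 1 library at a time gave log2 fold changes of -0.98 to -0.78 for Slc38a5, -0.23 to 0.08 for Slc2a2, -0.60 to -0.41 for G6pc2 and -0.20 to -0.12 for Slc30a8. Slc2a2 changed sign to 0.06 without mutant replicate 1 and to 0.0837 without control replicate 2, and the cause was not tested. All genes called numbered 1167 and ran from 629 (without control pool 1) to 1421 (without control pool 2) with 1 library left out, with 648, 767 and 776 without mutant pool 2, 1 and 3, lower calls (628) from 343 to 725 and higher calls (539) from 282 to 696. Without both pools low in Xist the totals were 665, 350 lower and 315 higher, a fit with fewer samples. That fit called 0 of the glucose phosphorylation list (3 in all pools), 2 of the glycolysis list (5), 4 of the zinc list (7) and 3 of the amino acid transporter list (5). With 1 library left out, these lists had 0 to 4, 2 to 5, 5 to 6 and 3 to 4 calls, the glucose transporter list 0 to 1 and the hormone list 5 to 7. Total-count scaling called 1 glucose transporter gene instead of 0. Replicate numbers are not said to pair the pools. Deviations of same-numbered pools correlated at 0.138, 0.101 and -0.0497 for numbers 1 to 3, and mutant pool 3 correlated best with control pool 2 (0.159). So few correlations of similar size cannot decide whether pools were paired. With the replicate block, 1138 genes were called, with no change of call among the 4. Slc38a5 stood at -0.91 (SE 0.0617), Slc2a2 at -0.08 (SE 0.0945), G6pc2 at -0.48 (SE 0.206) and Slc30a8 at -0.16 (SE 0.239). The SE was smaller with the block for Slc38a5 and Slc2a2 and larger for G6pc2 and Slc30a8. Adding 2 reads instead of 0.5 changed the direction of none of the 14 ratios. Depth limits G6pc2 and Slc30a8, which had 20 to 56 reads per library.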
